A study of Mus musculus with 4 samples.

Results

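Langerhans cells of the mouse back-skin epidermis were taken from 4 droplet single-cell RNA libraries, 1 library for each combination of genotype and time. A barcode was counted as a Langerhans cell when it held Cd207 and at least 10 unique molecular identifiers (UMIs, each standing for 1 captured transcript) from the class II genes Cd74, H2-Aa, H2-Ab1 and H2-Eb1. It also had to hold fewer than 2 UMIs of Cd3e, Cd3g and Cd3d, fewer than 50 Krt5 and Krt14 UMIs per 10000, and at most 15% mitochondrial UMIs. The lowest total was 1368 UMIs at 1 day and 1000 at 1 week. These limits found 1670 cells among 109216 barcodes. Because the cells were chosen by these transcripts, the levels of those transcripts are descriptions.

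The study compared epidermis of DNp63fl/fl mice, the controls, with that of DNp63fl/fl;K14-CreT2 mice, the experimental group, at 1 day and at 1 week after ablation of the ΔNp63 isoforms of the transcription factor p63. All mice of both groups carried the floxed alleles and received tamoxifen by oral gavage at 200 mg/kg on each of 5 days; their ages ran from 2 to 17 months, and males and females were used equally. The K14 promoter that drives the Cre is a promoter of basal keratinocytes, so the Langerhans cells were not the cells in which the gene was targeted. Epidermis was floated in 0.25% trypsin at either 4 °C or 37 °C, and the labels do not say which temperature, which ages or how many animals entered each library.

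Langerhans cells are the antigen-presenting cells of the epidermis, where they sit between keratinocytes and extend processes toward the skin surface. They carry langerin, the lectin that Cd207 encodes, and display peptides on class II molecules. After activation they can lose contact with keratinocytes, turn on the chemokine receptor Ccr7 and leave through lymphatic vessels for the draining lymph node, where they meet T cells.

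With 1 library per group there is no replicate error and no test, and no p-value is given. The 95% intervals in brackets are exact (Poisson, Clopper-Pearson, or conditional on the 2 sums) or, for differences of shares, Newcombe's. They cover counting error only. Capture was at the 3′ end of transcripts for the libraries of 1 day and at the 5′ end for those of 1 week, so the times were kept apart. The libraries held 68191870 to 179736563 gene UMIs, and 15318 to 31862 barcodes passed the depth and mitochondrial limits. The lowest UMI total listed was 500 in each control library, 1368 in the 1-day experimental library and 1059 in the 1-week experimental library. Median depth of passing barcodes was 4768 UMIs (control) and 3502 (experimental) at 1 day, and 3597 and 1618 at 1 week. The library pairs shared 299 barcodes at 1 day and 661 at 1 week, and no gated cell of 1 library shared its barcode with a gated cell of another. At 1 day the gated cells that could be typed by Xist or Y-linked transcripts were all Y-positive (246 control and 487 experimental cells), whereas the labels give an equal sex ratio. At 1 week they were mixed, with 53 Xist-only and 43 Y-only control cells and 41 and 25 experimental cells. Keratinocytes gated from the same libraries held Trp63, the targeted gene, at 492 CPM (counts scaled to a sum of 1e6) in the control and 135 in the experimental library at 1 day, and at 534 and 165 at 1 week.

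The gate found 464 cells in the 1-day control library, 986 in the 1-day experimental library, 128 in the 1-week control library and 92 in the 1-week experimental library. Their median depth was 2644.5, 2629, 4018 and 6473.5 UMIs in that order. Not all of them carried the transcripts of a leukocyte. The summed level of Tyrobp, Fcer1g, Ptprc, Cd52, Laptm5 and Coro1a, 6 genes of blood-derived cells, had a median of 39.5 UMIs per 10000 in the 1-day control cells, 19.4 in the 1-day experimental cells, 58.0 in the 1-week control cells and 36.9 in the 1-week experimental cells. The cells with at least 10 such UMIs per 10000, called leukocyte-rich below, were 382, 645, 122 and 73 in number. That was 82.3%, 65.4%, 95.3% and 79.3% of the gated cells, the lowest in the 1-day experimental library. The limit was chosen after the values were seen.

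The other gated cells, 82, 341, 6 and 19 in number, looked little like Langerhans cells by these genes. At 1 day their median class II level was 71.5 (control) and 72.8 (experimental) UMIs per 10000, against 890 and 621 in the leukocyte-rich cells. In the same order their median Krt5 and Krt14 level was 34.2 and 23.9 per 10000, against 5.28 and 5.63. Their depth also stood apart, with a median of 8697 UMIs at 1 day in the control library and 3494 in the experimental one. For these barcodes the name of the cell type is not borne out by its markers, so the results that follow are for all gated cells. Leukocyte-rich values are added for many of these results, but not for all. The barcodes given the highest doublet scores by Scrublet held 26.5% of the gated cells of the 1-day control library, 42.6% of the 1-day experimental library, 19.5% of the 1-week control library and 15.2% of the 1-week experimental library, where 26.8%, 25.8%, 20.03% and 14.7% of all barcodes were so scored.

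**Figure D1:**
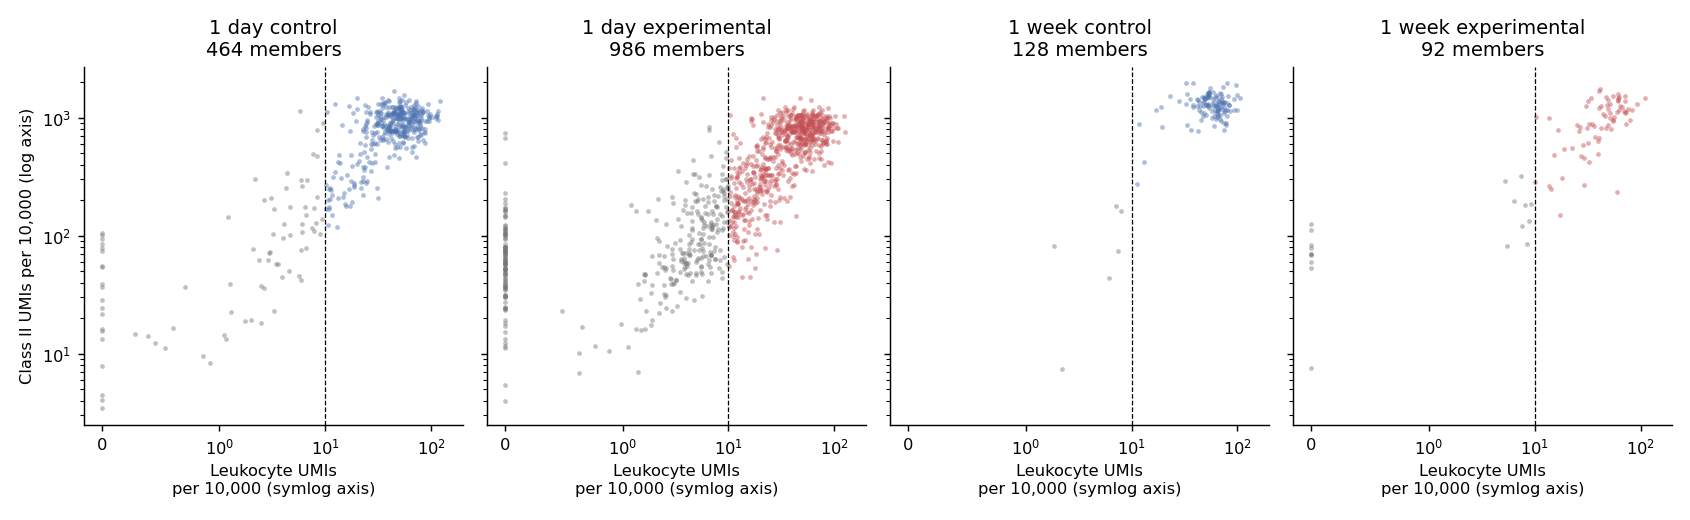
Class II UMIs per 10000 (log axis) against leukocyte UMIs per 10000 (summed over 6 genes, axis linear near 0 and log above) for every gated Langerhans cell, 1 panel per library, with the limit of 10 per 10000 as a dashed line and grey points below it. The share of cells right of the line is 82.3% in the 1-day control library, 65.4% in the 1-day experimental, 95.3% in the 1-week control and 79.3% in the 1-week experimental library.

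The edges of the gate were soft in the same way. Cells with a single Cd207 UMI, just inside, numbered 22 in the 1-day control library, 83 in the 1-day experimental, 3 in the 1-week control and 16 in the 1-week experimental library, and their median leukocyte level was 0.764, 2.19, 7.40 and 3.79 UMIs per 10000. Barcodes with the same class II level and no Cd207, just outside, numbered 68, 96, 41 and 53, with medians of 0, 1.46, 7.85 and 1.09.

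Gated cells, including those that were not leukocyte-rich, were a larger share of passing barcodes in the experimental library at 1 day and a smaller share at 1 week. They made up 1.65% of control barcodes at 1 day [1.504 to 1.80] and 3.09% of experimental barcodes [2.91 to 3.29]. The difference was 1.45 percentage points [1.20 to 1.69], a ratio of 1.88 [1.68 to 2.10]. At 1 week the share was 0.836% [0.698 to 0.993] in the control and 0.502% [0.405 to 0.615] in the experimental library. There the difference was -0.334 points [-0.516 to -0.159] and the ratio 0.601 [0.455 to 0.792].

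Among leukocyte-rich cells both directions stood, and the size at 1 day was less than in all gated cells. Their share was 1.36% and 2.02% at 1 day, a difference of 0.667 points [0.461 to 0.872], and 0.796% and 0.398% at 1 week, a difference of -0.398 points [-0.572 to -0.234]. Epidermal T cells, gated by Cd3 transcripts and counted beside them, did not show the 1-day gain. They were 1.22% of control and 0.8003% of experimental barcodes at 1 day, and 1.47% and 0.709% at 1 week. There were 1.35 gated Langerhans cells per T cell in the control and 3.87 in the experimental library at 1 day, and 0.569 and 0.708 at 1 week. With the leukocyte-rich cells alone the 1-week values were 0.542 and 0.562.

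These shares count barcodes, and the other barcodes differed between libraries too. At 1 week a floor of 2000 UMIs, in place of 1000, gave a difference of 0.0755 points [-0.257 to 0.433], so the smaller share was present only with the shallower barcodes of that library counted in. Counted among barcodes with under 50 Krt5 and Krt14 UMIs per 10000, the 1-week difference was -0.175 points [-1.23 to 0.917]. A change in the number of Langerhans cells and a change in how many other cells were recovered cannot be told apart in a share.

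**Figure D2:**
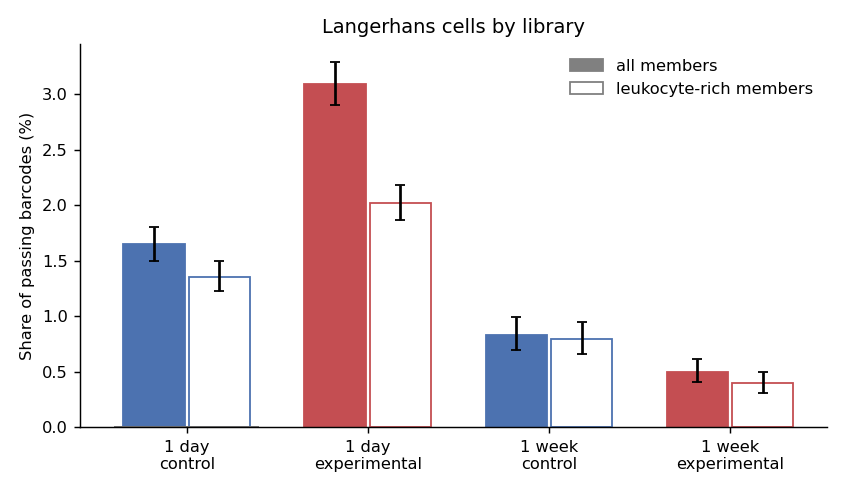
Share of passing barcodes (%) gated as Langerhans cells in each library, with all gated cells as filled bars, leukocyte-rich cells as open bars and exact 95% intervals for counting error. The experimental bar is above the control bar at 1 day (3.09% against 1.65%) and below it at 1 week (0.502% against 0.836%).

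Class II genes were the most abundant of the gate's transcripts in all 4 libraries. Their promoters share a box, ATTGG or its reverse complement CCAAT, to which the trimeric factor NF-Y binds next to the elements that recruit the class II regulator Ciita. The 100 bases before the start are shown for H2-Aa (chr17:34287824-34287923, minus strand) and H2-Eb1 (chr17:34305767-34305866, plus strand), the α and β chains of the I-A and I-E molecules, as the 2 of the 4 class II gate genes whose windows were in the RefSeq table of build GRCm38.p6. The box is in capitals:
H2-Aa: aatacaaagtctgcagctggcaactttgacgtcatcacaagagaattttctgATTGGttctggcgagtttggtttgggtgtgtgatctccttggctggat
H2-Eb1: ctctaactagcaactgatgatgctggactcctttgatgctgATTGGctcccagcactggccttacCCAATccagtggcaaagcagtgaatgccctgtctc
The first window holds 1 box and the second 2, searched on both strands, and 18.9% of the 32851 windows of the same length in the table hold at least 1. A match of letters is a description, not a measured site.

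For each gene the UMIs of the gated cells of a library were summed and divided by that library's sum, giving CPM. A ratio is experimental over control on the log2 scale, and a gene is called higher or lower when it is past 2-fold with the interval off 0 and has at least 20 UMIs over both sums. At 1 day 435 of 9815 genes were higher, 4.43%, and 199 were lower, 2.03%. At 1 week 607 of 6558 were higher, 9.26%, and 228 were lower, 3.48%. The median ratio of all genes was -0.0015 at 1 day and 0.10 at 1 week. In the leukocyte-rich cells 4.94% were higher and 1.49% lower at 1 day, and 11.0% and 3.56% at 1 week.

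The transcripts used by the gate were lower in the experimental cells at both times, given here as description. At 1 day Cd207 (chr6:83671215-83677857, minus strand) stood at 6529 CPM in control and 4426 in experimental cells, a log2 ratio of -0.56. Cd74, the invariant chain that escorts class II molecules, stood at 16456 and 11100. The α and β chains followed the same order, H2-Aa at 8507 and 5818, H2-Ab1 at 10764 and 6874, and H2-Eb1 at 8287 and 5534. At 1 week Cd207 stood at 6663 and 3283 CPM, a ratio of -1.02 [-1.10 to -0.95], and the 4 class II genes had ratios of -0.41 to -0.54. Cd207 was the gate gene with the largest difference there, and it was past 2-fold also in the leukocyte-rich cells (-1.07). Requiring 2 Cd207 UMIs gave -0.91 and leaving out cells with a Ccr7 UMI gave -0.94, both short of 2-fold.

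Langerhans cell identity genes outside the gate were present in every library. Of 16 such genes 15 had enough UMIs at each time. None was called at 1 day, with a median ratio of -0.32, and Ltc4s alone was lower at 1 week, with a median of -0.49 (0 higher and 1 lower, against backgrounds of 9.26% and 3.48%). Mfge8, which encodes a secreted protein that binds the phosphatidylserine of dying cells, was the most abundant. Its level was 1722 CPM in control and 1482 in experimental cells at 1 day, and 4734 and 6165 at 1 week. Csf1r, the receptor through which IL-34 keeps Langerhans cells alive, stood at 184 and 119 CPM at 1 day and at 505 and 480 at 1 week. Neither gene crossed 2-fold.

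Ltc4s, the enzyme that makes leukotriene C4, stood at 427 CPM in control and 310 in experimental cells at 1 day (-0.46), and at 1072 and 454 at 1 week (-1.24 [-1.44 to -1.04]). After each cell was thinned to 1000 UMIs, 66.4% of 1-week control cells and 37.0% of experimental cells held an Ltc4s UMI, a difference of -29.4 points [-41.3 to -16.1]. Keratinocytes of the same libraries, thinned alike, held it in 13 and 9 of 2000, and no T cell of the 225 and 130 did, so the shares in the gated cells lay far above these 2 backgrounds. The leukocyte-rich cells gave 68.9% and 42.5%.

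Other identity genes had smaller ratios. At 1 week the decoy receptor Il1r2, which binds IL-1 without signalling, stood at 2563 and 1564 CPM (-0.71). Tbc1d4, a Rab GTPase-activating protein, stood at 2131 and 1169 (-0.87). The tight-junction gene Cldn1 stood at 1798 and 1418 (-0.34). The signalling adaptors Tyrobp and Fcer1g, shared by many myeloid cells, stood at 1537 and 836 (-0.88) and at 1274 and 719 (-0.82). In these 5 genes the experimental library was the lower of the 2 without passing 2-fold. The integrin Itgax stood at 128 and 187 CPM and the protease Ctsz at 232 and 460, the higher values being in the experimental cells. At 1 day the 5 genes stood at 1389 and 1118, 1236 and 987, 980 and 984, 820 and 554, and 614 and 471 CPM, Itgax at 37.8 and 36.9, and Ctsz at 212 and 153.

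None of the remaining identity genes was called. Cd52 stood at 481 and 438 CPM at 1 day and at 737 and 525 at 1 week. Cd24a stood at 137 and 136, then at 319 and 258. The leukocyte phosphatase Ptprc stood at 92.6 and 65.6, then at 304 and 197. Plek2 stood at 188 and 138, then at 197 and 134. Hepacam2 had too few UMIs to be called, with 2.30 and 3.33 CPM at 1 day and 7.82 and 17.3 at 1 week. Epcam, an adhesion molecule of Langerhans cells and of some keratinocytes, stood at 932 and 1387 CPM at 1 day and at 1160 and 1456 at 1 week, while in keratinocytes it stood at 809 and 1634 at 1 day.

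**Figure D3:**
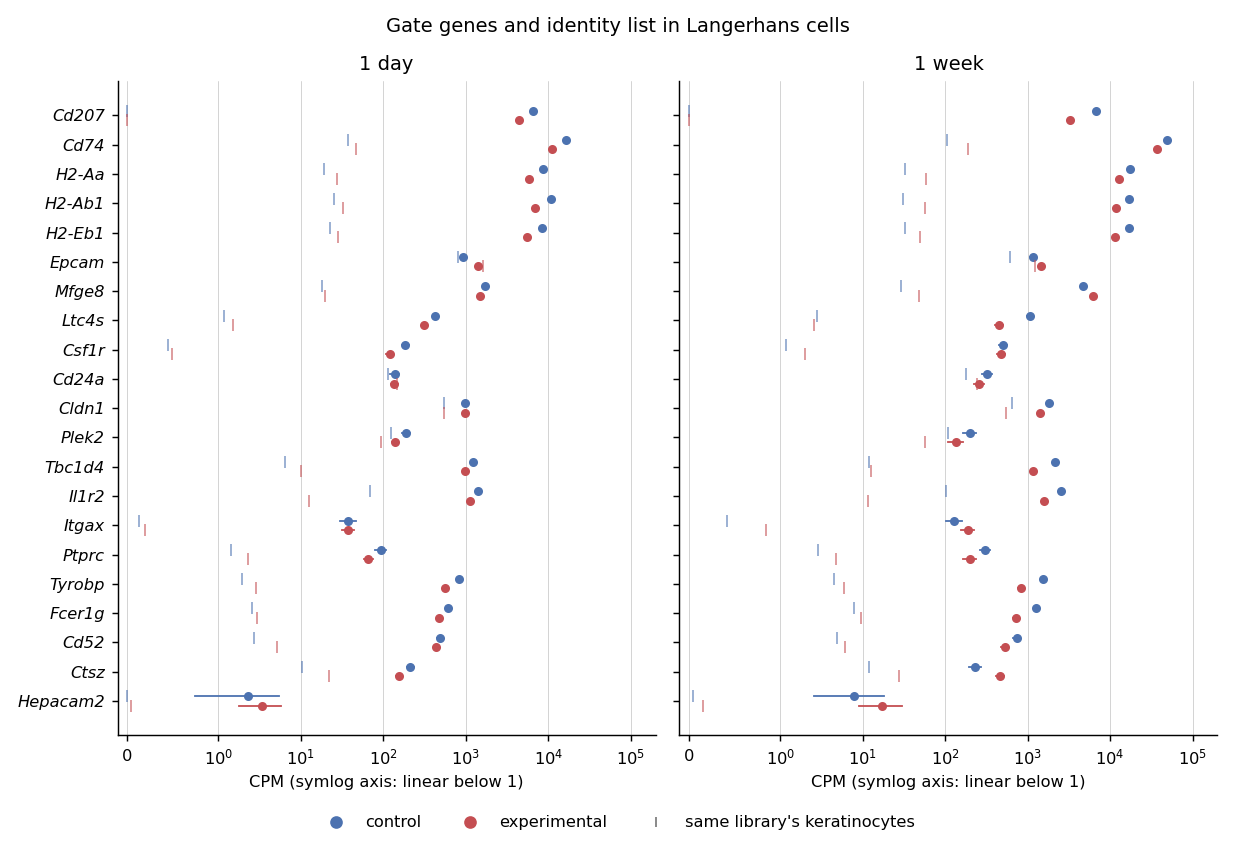
Level (CPM, log axis that is linear below 1) of the gate and identity genes in the summed gated cells of the control (blue) and experimental (red) libraries, with exact 95% Poisson intervals and, as ticks, the level in keratinocytes of the same library. At 1 week Cd207 (3283 against 6663) and Ltc4s (454 against 1072) are the genes here whose experimental value is below the control value by more than 2-fold.

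Genes of dendritic cell maturation and migration were higher in the summed experimental cells, a few at 1 day and most at 1 week. The 1-week median of the list turned negative when cells with a Ccr7 UMI were left out, and also after thinning, as given below. From a list of 30, 7 of 26 with enough UMIs were higher at 1 day and none lower (26.9% against the 4.43% of all genes). At 1 week 17 of 25 were higher and none lower (68.0% against 9.26%). Keratinocytes had 10 of 27 higher and 1 lower on this list at 1 week, with a median of 0.50, and T cells had 4 of 14 higher, with a median of 0.0084. The list's median ratio was 0.09 at 1 day and 2.64 at 1 week, beside -0.0015 and 0.10 for all genes.

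At 1 day the chemokine Ccl22, which attracts T cells that carry Ccr4, stood at 43.3 CPM in control and 158 in experimental cells (1.87 [1.55 to 2.20]). Ccr7, the receptor for the lymphatic chemokines Ccl19 and Ccl21, stood at 18.4 and 44.4 (1.27 [0.76 to 1.80]). Samsn1, an adaptor protein, stood at 3.68 and 15.6 (2.09). Il15ra, which presents IL-15, stood at 7.83 and 16.2 (1.04), and in the leukocyte-rich cells its ratio was 0.48. The amino acid oxidase Il4i1 had 6 UMIs in the control and 51 in the experimental sum. Ccl17, the partner of Ccl22 at the receptor Ccr4, had no UMI in the control cells and 27 in the experimental cells, 5.01-fold higher when a floor of 3 counts stands for the 0. Such floor values leave out the counting error of the experimental sum. The exact interval of Ccl17 starts lower, at a log2 ratio of 1.93 against 2.32 by the floor. Ccl5 had 0 and 20, 3.71-fold higher by that floor. Il4i1, Ccl17 and Ccl5 are named here beyond the naming rule, after their values were seen.

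Cd86, Cd83 and Fscn1 were not called at 1 day. Cd86, a ligand of CD28 on T cells, stood at 519 CPM in control and 363 in experimental cells (-0.52). Fewer experimental cells held it after thinning, 35.9% against 50.2% of control cells, a difference of -14.3 points [-19.7 to -8.85]. In the leukocyte-rich cells that difference was -11.9 points [-18.0 to -5.55]. Cd83, a surface marker of activated dendritic cells, stood at 432 and 360 (-0.26). The actin-bundling protein Fscn1 stood at 10.1 and 17.2 (0.76 [0.05 to 1.53]), short of 2-fold, and in the leukocyte-rich cells its ratio was 1.44.

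At 1 week the ratios of the same migration genes were far larger. Ccl22 (chr8:94745590-94751699, plus strand) stood at 14.1 CPM in control and 982 in experimental cells, that is 9 and 681 UMIs (6.12 [5.19 to 7.26]). Ccr7 (chr11:99144196-99155077, minus strand) stood at 14.1 and 653 CPM, 9 and 453 UMIs (5.53 [4.60 to 6.67]). Fscn1 (chr5:142960343-142973185, plus strand) bundles actin in the processes of mature dendritic cells. It had no UMI in the control cells and 571 in the experimental cells. This was 175-fold higher with the floor count used above in place of 0, which leaves out the counting error of the experimental sum. Icam1, an adhesion ligand for T cell integrins, stood at 40.7 and 89.4 (1.14 [0.45 to 1.86]). Leukocyte-rich cells gave 6.13 for Ccl22, 5.55 for Ccr7 and 1.72 for Icam1.

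The other called members at 1 week, named after their values were seen, include genes of antigen presentation to T cells and of its restraint. Cd40, the receptor for the T cell ligand CD154, stood at 26.6 and 59.1 CPM (1.15). Cd80, which like Cd86 binds CD28, stood at 6.26 and 38.9 (2.64). Cd274, which encodes the inhibitory ligand PD-L1, had 1 UMI in the control and 35 in the experimental sum (5.01 [2.44 to 10.35]). Il4i1 had 2 and 79 (5.19 [3.28 to 8.26]), Ccl17 had 0 and 24 (7.37-fold higher by the floor of 3 counts), and Samsn1 had 5 and 52. Il12b, the p40 subunit of IL-12 and IL-23, had 0 and 86, 26.4-fold higher by the same floor, and these came from 3.26% of the experimental cells. Cd86 stood at 689 and 510 CPM (-0.43) and Cd83 at 964 and 814 (-0.24), so these 2 abundant activation markers were not called at this time either. The share of cells with a Cd86 UMI after thinning was lower, however, at 51.6% of control and 34.8% of experimental cells. The difference was -16.8 points [-29.1 to -3.48], and in the leukocyte-rich cells it was -14.4 points [-27.9 to 0.102].

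**Figure D4:**
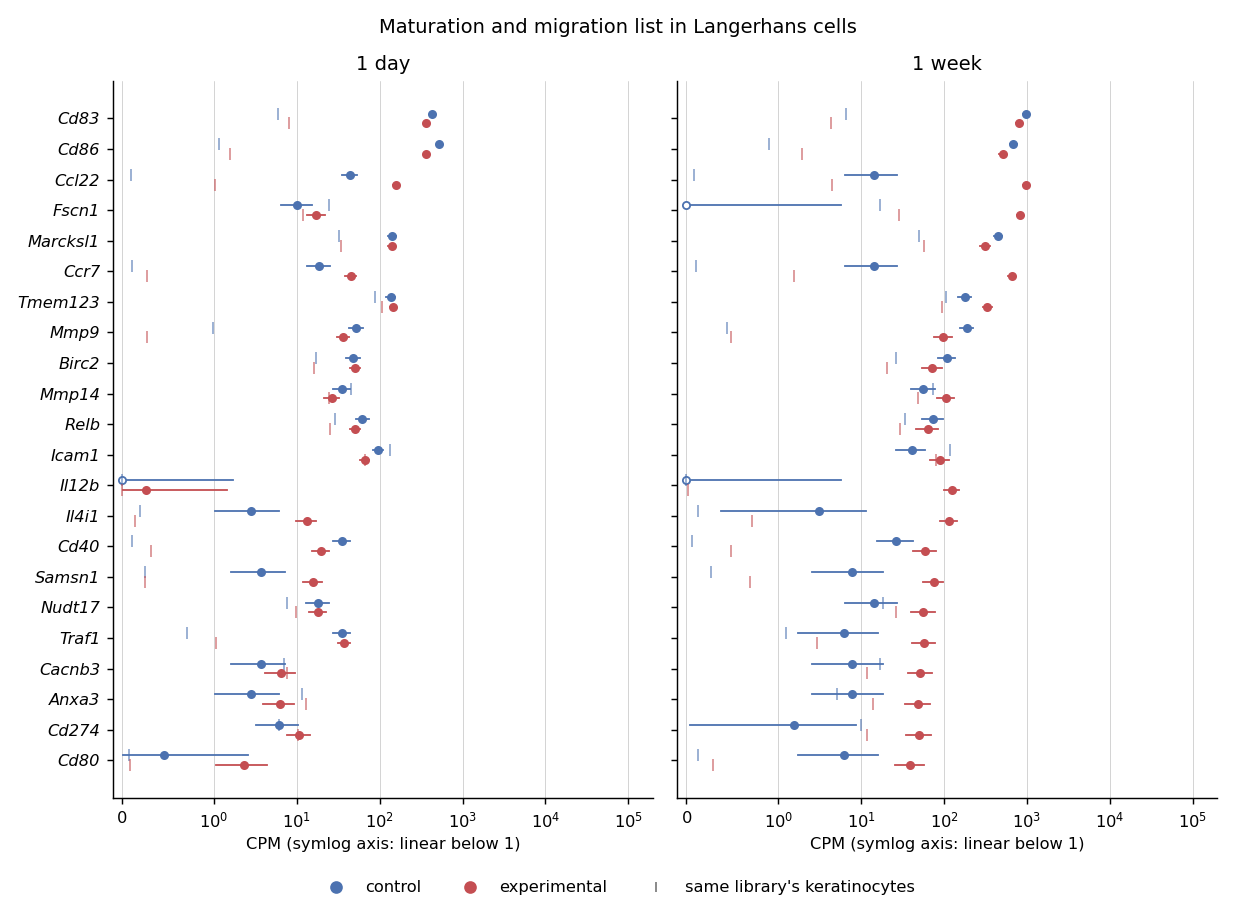
Level (CPM, log axis that is linear below 1) of the most abundant maturation and migration genes in the summed gated cells of the control (blue) and experimental (red) libraries, with exact 95% Poisson intervals, open points for 0 UMIs and ticks for keratinocytes of the same library. At 1 week Ccl22 (982 against 14.1) and Ccr7 (653 against 14.1) lie far apart, whereas Cd83 and Cd86 do not pass 2-fold at either time.

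At 1 week the UMIs of Ccl22, Fscn1, Il12b and Samsn1 lay in a small group of cells, those with Ccr7, whereas Cd83 and Cd86 were found in cells with and without it. After thinning to 1000 UMIs, Ccr7 was detected in 2.16% of 1-day control cells (10 of 464, [1.04 to 3.93]) and 3.04% of 1-day experimental cells (30 of 986, [2.06 to 4.32]), a difference of 0.887 points [-1.10 to 2.49]. At 1 week it was detected in 2.34% of control cells (3 of 128, [0.486 to 6.70]) and 18.5% of experimental cells (17 of 92, [11.1 to 27.9]), a difference of 16.1 points [8.24 to 25.4]. Without thinning the counts were 20, 56, 4 and 21 cells, or 4.31%, 5.68%, 3.12% and 22.8%. In the leukocyte-rich cells the thinned difference was 1.72 points [-0.786 to 3.93] at 1 day and 20.8 points [11.5 to 31.8] at 1 week.

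The background for these shares was low. Among 2000 thinned keratinocytes per library, none held a Ccr7 UMI at 1 day or in the 1-week control library, which by a limit of 3 counts allows a share of up to 0.150%, and 4 did in the 1-week experimental library (0.200%). Among T cells, some of which carry the receptor, the share was 0.875%, 0.392%, 1.33% and 3.08% in the 4 libraries. At the median depths of 2644.5 and 2629 UMIs, the 1-day difference in the share of Ccr7-positive cells was not detectable beyond counting error, although summed Ccr7 UMIs were past 2-fold.

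At 1 week the positive cells of the experimental library held many Ccr7 UMIs each. Their median was 12 and their highest value 77, and 14 of the 21 held at least 10, whereas none of the 4 positive cells in the control library did. Selecting cells by Ccr7 makes the contrasts that follow descriptions. Of the 21 cells 17 held Ccl22, 11 held Fscn1 and 12 held Il4i1, against 6, 2 and 0 of the 71 cells without Ccr7. The 21 cells held 675 of the 681 Ccl22 UMIs, 569 of the 571 Fscn1 UMIs, all 86 Il12b UMIs and all 52 Samsn1 UMIs. Their median depth was 8446 UMIs, against 5922 in the other 71.

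These 21 cells also held Langerhans cell transcripts. All 21 held Mfge8, 18 held Ltc4s and 15 held Epcam, 20 were leukocyte-rich and 2 were among the highest doublet scores. Cd207 stood at 2874 CPM in them and at 3431 in the 71 others, Cd74 at 38481 and 36912, and Mfge8 at 8653 and 5266. The gate required Cd207 and class II transcripts, so their presence in these cells was set by the gate and says nothing on identity. Epcam stood at 902 and 1656 CPM and Csf1r at 185 and 587, both lower in the Ccr7-positive cells, while Cd86 stood at 1038 and 320 and Cd83 at 1249 and 657. Of the 21, 15 were Xist-only and 4 Y-only by sex-linked transcripts, where all 92 gated cells were 41 and 25. Whether the sex or number of the animals bears on this was not tested.

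Of the 56 Ccr7-positive experimental cells of 1 day, 41 were leukocyte-rich and 19 were among the highest doublet scores, and their median depth was 2750 UMIs. In this group 26 held Ccl22, 12 held Fscn1 and 16 held Il4i1, and 4 held at least 10 Ccr7 UMIs. Ccl22 stood at 2335 CPM in these cells and at 27.7 in the 930 without Ccr7. Of the 20 positive control cells 4, 3 and 3 held those transcripts.

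**Figure D5:**
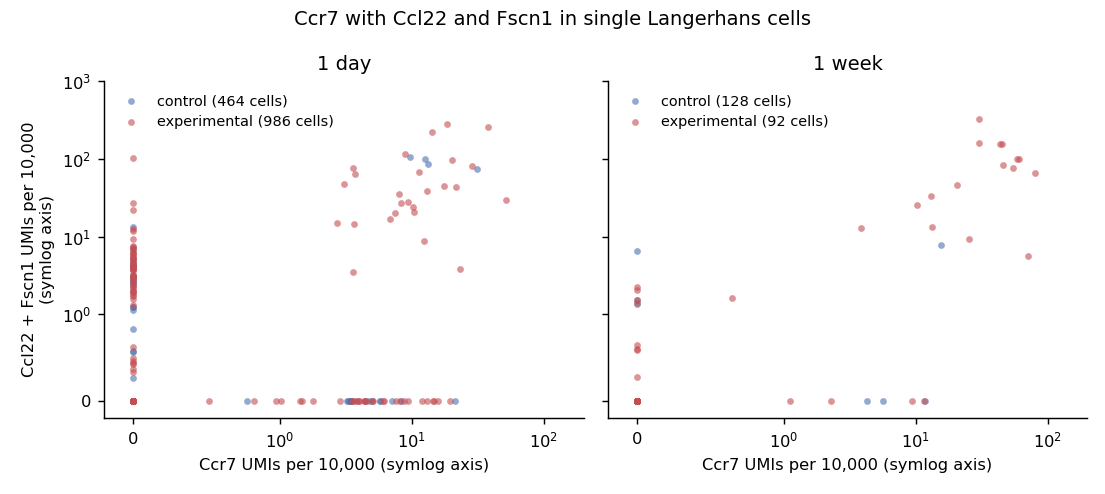
Summed Ccl22 and Fscn1 UMIs per 10000 against Ccr7 UMIs per 10000 in each gated Langerhans cell (both axes linear near 0 and log above), control cells in blue and experimental cells in red, 1 panel per time. Of the 21 Ccr7-positive experimental cells at 1 week 17 hold Ccl22, and of the 4 positive control cells 1 does.

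Leaving the cells with a Ccr7 UMI out of both 1-week libraries gave the list of maturation genes a median of -0.70, with 2 of 11 higher and 2 lower. Of all genes in that setting 8.90% were higher and 3.37% lower. In the cells without Ccr7, Cd40 had a ratio of -0.89 and Icam1 of -0.25. Thinning every cell to 1000 UMIs, which removes the added weight of deep cells, gave a median of -0.11 over the 10 genes that still had enough UMIs, with 3 higher and 1 lower. Of all genes 9.23% were then higher and 8.47% lower.

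Complement C1q genes were higher in the experimental cells at 1 week, and this was not limited to the Ccr7-positive cells. C1qa stood at 106 CPM in control and 414 in experimental cells (1.96 [1.57 to 2.36]), C1qb at 26.6 and 281 (3.40 [2.68 to 4.21]) and C1qc at 31.3 and 195 (2.64 [1.95 to 3.39]). These 3 chains form the recognition part of complement component C1, which macrophages and some dendritic cells make. After thinning, 12.5% of control and 28.3% of experimental cells held C1qa, a difference of 15.8 points [5.09 to 26.7], whereas keratinocytes held it in 0.0500% and 0.750% and no T cell did. C1qa stood at 380 CPM in the 21 Ccr7-positive cells and 426 in the others. The 1-day order was the other way without passing 2-fold, with C1qa at 205 and 146, C1qb at 52.0 and 40.8 and C1qc at 38.2 and 24.6.

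These genes belong to the macrophage list, of which 7 of 10 were higher at 1 week and none lower (70.0% against the 9.26% of all genes, median 2.29), and 0 of 8 higher and 1 lower at 1 day (median -0.47). Keratinocytes of the same libraries had the same count at 1 week, 7 of 10 higher with a median of 2.21, at a summed level of 40.5 and 63.7 CPM, where the gated cells had 645 and 1578. Lysozyme Lyz2 stood at 79.8 and 196 CPM at 1 week (1.30). The macrophage markers Mrc1, Cd163 and Pf4 had 1, 3 and 1 UMIs in the control and 20, 20 and 28 in the experimental sum, ratios of 4.20 [1.56 to 9.58], 2.62 [0.86 to 5.01] and 4.69 [2.09 to 10.04]. Only 2 experimental cells and 1 control cell held 5 or more UMIs of these markers together, and the 2 held 33 of the 617 C1q UMIs of that library. Without such cells 4 of 7 macrophage genes were higher, with a median of 1.46. The median was 1.03 with 2 Cd207 UMIs required (4 of 7 higher), 1.01 after thinning (3 of 6) and 1.32 without the highest Scrublet scores (4 of 8). In the same order of settings 9.17%, 8.98%, 9.23% and 10.2% of all genes were higher. Adgre1, which encodes F4/80 and is shared by macrophages and Langerhans cells, stood at 128 and 85.0 CPM. Fcgr1 had 0 and 5 UMIs, and the monocyte markers Ly6c2 and Plac8 had none in any library. The monocyte list as a whole had no member with enough UMIs, at a summed level of 1.84 and 4.36 CPM at 1 day and 4.69 and 20.2 at 1 week.

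Part of the glycolysis list was higher at 1 week, in the gated cells and in keratinocytes alike. Of 19, 9 were higher and none lower (47.4% against 9.26% of all genes), with a median of 1.05, beside 0 called of 19 and a median of 0.27 at 1 day. In keratinocytes 10 of 19 were higher at 1 week, with a median of 1.03. T cells had 1 higher and 1 lower of 18 at 1 week, with a median of 0.37. Gapdh stood at 901 CPM in control and 1929 in experimental cells (1.10), Pkm at 390 and 820 (1.07), Ldha at 227 and 631 (1.48) and Eno1 at 241 and 581 (1.27). In keratinocytes all 4 were called higher too, with Gapdh at 666 and 1687 CPM. After thinning, an Ldha UMI was held by 13.3% of control and 34.8% of experimental cells, but by 31.2% and 54.6% of keratinocytes and 31.6% and 37.7% of T cells. Taking a scaled keratinocyte profile off each sum gave the list a median of 1.04 at 1 week and -0.03 at 1 day. In the cells without Ccr7 it was 0.94.

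Genes tied to thymic stromal lymphopoietin (TSLP) and the type 2 response, a keratinocyte signal to dendritic cells, were partly higher at 1 week. Of 16, 6 were higher and none lower (37.5% against 9.26% of all genes), with a median of 0.64, and at 1 day 2 of 16 were higher (12.5% against 4.43%) with a median of 0.04. Keratinocytes had 5 of 16 higher at 1 week, with a median of 0.82. Besides Ccl22 these were led by Socs3, at 45.4 and 151 CPM (1.74), and Cish, at 26.6 and 137 (2.36), both feedback inhibitors of cytokine signalling, and by the lectin Mgl2, at 34.4 and 125 (1.86). The receptor chains themselves did not pass 2-fold, with Crlf2 at 111 and 98.0 CPM and Il7r at 261 and 257. After thinning, a Cish UMI was held by 1.56% of control and 12.0% of experimental cells, a difference of 10.4 points [3.90 to 18.7]. Keratinocytes held it in 6.25% and 6.30%, and T cells in 5.33% and 10.0%, so the experimental value lay above the keratinocyte share and near the T cell share of its library. In the cells without Ccr7 the list's median was -0.0013, with 4 of 14 higher, against 8.90% of all genes there. Among leukocyte-rich cells 8 of 16 were higher at 1 week, with a median of 0.95, against 11.0% of all genes there.

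Cytokine and chemokine genes had calls in both directions. At 1 week 5 of 15 were higher and 2 lower (median 0.32), and at 1 day 7 of 19 were higher and none lower (median 0.32), or 6 higher and 2 lower of 15 in the leukocyte-rich cells. The backgrounds were 9.26% higher and 3.48% lower at 1 week and 4.43% higher at 1 day, with 4.94% higher and 1.49% lower in the leukocyte-rich cells of 1 day. Keratinocytes had more calls on this list, 17 of 24 higher at 1 week (median 1.51) and 8 of 20 at 1 day (median 0.77). Il1rn, the IL-1 receptor antagonist, stood at 51.6 CPM in control and 184 in experimental cells at 1 day (1.84 [1.55 to 2.14]) and at 21.9 and 124 at 1 week (2.50 [1.68 to 3.43]). In keratinocytes it stood at 65.9 and 188 CPM at 1 day, the same order and size as in the gated cells, and at 1 week it had too few UMIs in the leukocyte-rich cells, 4 and 15, to be called there. Il1b, its inflammatory counterpart, stood at 449 and 471 CPM at 1 day and at 945 and 951 at 1 week, with ratios of 0.07 and 0.01. Tnf stood at 58.5 and 63.6, then at 225 and 140.

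Some chemokine calls rested on very few cells. The chemokine Ccl4 had 2 control and 100 experimental UMIs at 1 day (4.80 [2.91 to 7.86]), and those were in 0.203% of cells. The neutrophil chemokine Cxcl1 had 20 and 78 UMIs at 1 day (1.12 [0.39 to 1.91]) and 50 and 2 at 1 week (-4.76 [-7.85 to -2.83]), where 1.56% of control cells held it. Il6 had 25 and 9 UMIs at 1 week. Ccl2, a monocyte chemokine, stood at 45.4 and 156 CPM at 1 week (1.78), in 3.91% and 4.35% of cells. At 1 day it stood at 74.6 and 89.99, but in the leukocyte-rich cells it was lower, with a ratio of -2.76.

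Antigen processing genes were counted as 2 lists, for class I and class II. Of the class I list 3 of 19 were higher at 1 week and none at 1 day, with medians of 0.06 and -0.24 (15.8% at 1 week against 9.26% of all genes). In the leukocyte-rich cells 5 of 19 were higher at 1 week, against 11.0% of all genes there. The 3 called in all gated cells were parts of the immunoproteasome and its activator: Psmb8 at 158 and 428 CPM (1.44), Psmb9 at 56.3 and 130 (1.20) and Psme2 at 81.4 and 304 (1.90). In keratinocytes Psmb8 stood at 171 and 142 and Psme2 at 206 and 205, without a call. Of the class II processing list 3 of 14 were higher at 1 week (21.4% against 9.26%), with a median of 0.06, and 2 of 16 were lower at 1 day (12.5% against 2.03%), with a median of -0.48. Other cells of the 1-week libraries had as many or more of these calls, 5 of 14 in keratinocytes (median 0.83) and 3 of 5 in T cells (median 1.74). At 1 week these were the thiol reductase Ifi30 at 419 and 873 CPM (1.06) and the proteases Lgmn at 34.4 and 107 and Ctsl at 29.7 and 77.8. At 1 day H2-Oa, a chain of the peptide-loading inhibitor H2-O, stood at 19.8 and 7.43 (-1.41). In the leukocyte-rich cells 1 of 15 class II processing genes was lower at 1 day (median -0.27), against 1.49% of all genes there.

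A few uptake and sensing receptors were called higher at 1 week. From the pattern recognition list 3 of 12 were higher (median 0.17), against 9.26% of all genes, and 1 of 18 at 1 day (median 0.20), a share near the 4.43% of all genes. Keratinocytes had 5 of 21 higher and 1 lower at 1 week (median 0.28), against 12.7% and 4.66% of all their genes, and T cells had none of 5 called. In the leukocyte-rich cells 2 of 14 were higher at 1 day, against 4.94% of all genes there. Ly75, which encodes the endocytic receptor DEC-205, stood at 155 and 442 CPM at 1 week (1.51 [1.18 to 1.86]), and Cd14, a co-receptor for lipopolysaccharide, at 70.4 and 206 (1.55 [1.06 to 2.07]). At 1 day the 2 genes stood at 45.1 and 55.6 and at 12.4 and 23.3. Of the cytokine receptors 3 of 26 were higher at 1 week, among them Ifngr1 at 31.3 and 107 (1.77), and 1 of 28 at 1 day, both shares near the background.

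Genes of TGF-beta signalling, which holds Langerhans cells in the epidermis, showed a few calls. At 1 week 2 of 13 were higher (median -0.25, 15.4% against the 9.26% of all genes), the receptor Tgfbr1 at 12.5 and 46.1 CPM (1.88 [0.73 to 3.21]) and the secreted protein Tgfbi at 46.9 and 112. At 1 day 2 of 20 were higher (median 0.02, background 4.43%), the signal transducer Smad3 at 17.0 and 39.7 CPM (1.22) and Itgb6, a chain of the TGF-beta-activating integrin that keratinocytes make, at 11.1 and 38.2 (1.79). Of the epithelial adhesion list 1 was higher and 1 lower of 13 at 1 week (median -0.24) and none of 13 at 1 day (median 0.17). Each 1-week count was 7.69%, against 9.26% of all genes higher and 3.48% lower, and each rests on 1 gene. E-cadherin, encoded by Cdh1 and the tie between Langerhans cells and keratinocytes, stood at 338 and 463 CPM at 1 day and at 338 and 383 at 1 week. The nectin-like adhesion gene Pvr stood at 155 and 70.6 at 1 week (-1.13 [-1.66 to -0.63]), and Nectin2 at 29.7 and 80.7 (1.44).

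The NF-kB and interferon lists each held calls in both directions at 1 week. NF-kB genes numbered 3 higher and 1 lower of 19 (median 0.14), beside backgrounds of 9.26% and 3.48%. Bcl2a1d, which opposes apoptosis, stood at 31.3 and 154 CPM (2.30), and Tnfaip2 at 1175 and 561 (-1.07 [-1.25 to -0.89]). Interferon-stimulated genes numbered 3 higher and 1 lower of 14 (median 0.57), with the antiviral restriction gene Ifitm3 at 57.9 and 182 CPM and the ubiquitin-like Isg15 at 79.8 and 18.7 (-2.09 [-3.09 to -1.19]). On this list keratinocytes had 12 higher and 3 lower of 36 at 1 week (median 0.50), against 12.7% and 4.66% of all their genes. T cells had 4 of 14 higher (median 0.34), against 5.38%. Ifitm3 is abundant in keratinocytes, which held it at 696 and 997 CPM, and with a Krt5 and Krt14 limit of 20 per 10000 its ratio was -0.013. At 1 day 1 of 19 NF-kB genes was higher, the inhibitor Tnip3 at 16.6 and 56.4 CPM (1.77), and 1 of 22 interferon genes was higher and 2 lower, with Ly6a at 40.5 and 184 (2.19). Both shares higher at 1 day were near the 4.43% of all genes, and 2.03% of all genes were lower. In the leukocyte-rich cells 2 of 18 interferon genes were higher and 1 lower at 1 day, against 4.94% and 1.49% of all genes there. In keratinocytes Ly6a stood at 259 and 731.

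Among transcription factors 3 of 21 were higher at 1 week (median 0.43, 14.3% against 9.26%) and none of 21 at 1 day (median -0.05). Irf8, a factor of the dendritic lineage, stood at 56.3 and 124 CPM (1.14 [0.56 to 1.74]), and Irf4, which acts in dendritic cell migration, at 21.9 and 44.7 (1.03 [0.07 to 2.05]), but at a ratio of -0.077 in the cells without Ccr7. Cebpb stood at 521 and 1074, but in the leukocyte-rich cells its ratio was 0.88. Stress and dissociation genes, which respond to handling and enzyme digestion, were higher in 7 of 38 at 1 week (median 0.43, 18.4% against 9.26% of all genes) and in 3 of 38 at 1 day (median 0.28, 7.89% against 4.43%). In the leukocyte-rich cells 6 of 38 were higher at 1 day, against 4.94% of all genes there. The heat-shock gene Hspa1b stood at 88.4 and 182 CPM at 1 day and at 76.7 and 350 at 1 week, and in keratinocytes at 236 and 336 at 1 week. The early-response genes Dusp1, at 263 and 632 CPM (1.26), and Nr4a2, at 35.0 and 88.7 (1.34), were called at 1 day too. The part of the trypsin step in these genes was not tested.

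Lipid and lysosome genes were the list with most lower calls at 1 day, 4 of 24 with 1 higher (median -0.26, 16.7% lower against 2.03% of all genes), against 4 higher and none lower of 23 at 1 week (median 0.13, 17.4% against 9.26%), when keratinocytes had 7 of 26 higher. Apoe, a lipid carrier, stood at 4782 CPM in control and 1902 in experimental cells at 1 day (-1.33 [-1.37 to -1.29]), while keratinocytes held it at 7912 and 3512. Plin2, which coats lipid droplets, stood at 109 and 37.2 at 1 day (-1.55 [-1.86 to -1.24]) and at 32.9 and 82.2 at 1 week (1.32 [0.58 to 2.12]). In keratinocytes Plin2 was not called at 1 day and was higher at 1 week, at 39.4 and 136 CPM. Cell-cycle genes gave 1 higher and 1 lower of 34 at 1 day (median 0.07) and 2 higher of 13 at 1 week (median -0.08), beside 4.43% higher and 2.03% lower of all genes at 1 day and 9.26% higher at 1 week.

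Keratinocyte transcripts were part of the gated cells' RNA, by an estimate that rests partly on genes of the gate. A keratinocyte profile scaled by Krt5, Krt14, Krt1 and Krt10 would account for 48.7% of the gated cells' UMIs in the 1-day control library, 58.4% in the 1-day experimental, 23.3% in the 1-week control and 14.8% in the 1-week experimental library. The gate itself limits Krt5 and Krt14, so these shares depend on it. The summed level of 22 keratinocyte markers was 30989 CPM in control and 40227 in experimental cells at 1 day. At 1 week it was 17461 and 20124, the opposite direction to the estimate. Of the 435 genes higher at 1 day, 247 stood at or below their level in keratinocytes of the experimental library, 241 were also called higher in keratinocytes and 236 were also called in the leukocyte-rich cells. Of the 607 at 1 week the numbers were 296, 174 and 414. Over all their tested genes, keratinocytes had 6.18% higher and 2.94% lower at 1 day and 12.7% and 4.66% at 1 week, and T cells had 3.61% and 5.11%, then 5.38% and 3.67%. Of 22 keratinocyte markers 5 were higher and 1 lower at 1 day (median 0.26), and of 21 at 1 week 7 were higher and 2 lower (median 0.25). The backgrounds of the gated cells were 4.43% higher and 2.03% lower at 1 day and 9.26% and 3.48% at 1 week. In the leukocyte-rich cells of 1 week 12 of 20 were higher and 2 lower, with a median of 1.59, and the summed level of the markers was 4038 CPM in the control and 10326 in the experimental cells. Of all genes in those cells 11.0% were higher and 3.56% lower. The wound keratin Krt16 stood at 279 and 1519 CPM in the gated cells at 1 day and at 676 and 2747 in keratinocytes. Trp63 stood at 255 and 87.7 CPM in the gated cells at 1 day (-1.54) and at 56.3 and 38.9 at 1 week.

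Both times shared 119 higher and 14 lower genes, of which 39 and 3 were also called at both times in the leukocyte-rich cells. Of all genes 4.43% were higher at 1 day and 9.26% at 1 week, and 2.03% and 3.48% were lower. The overlap that these rates alone would give was not computed. Among the shared higher genes, Slurp1, Slpi and Klk7 were higher in keratinocytes of the same libraries as well. Klk7, a protease of the cornified layer, stood at 204 and 1997 CPM in the gated cells at 1 day, and at 109 and 1944 in keratinocytes. Those above the keratinocyte level included Ccl17, Ccl22, Ccr7, Il4i1, Samsn1 and Tnip3. They also included Sprr2f, Spink5, Trex2, Skint9, Wfdc5 and Slc5a8, of which Spink5 and Trex2 were called higher in keratinocytes at 1 week too. Basp1, a membrane-bound signalling protein, stood at 28.6 and 63.1 CPM at 1 day (1.14) and at 34.4 and 239 at 1 week (2.80). The proteoglycan Srgn stood at 12.9 and 34.1 (1.40) and at 36.0 and 319 (3.15), while T cells held Srgn at 387 and 235 and at 1177 and 1160. Both Basp1 and Srgn were also called higher in keratinocytes at 1 week, Basp1 at 2.99 and 27.1 CPM and Srgn at 4.25 and 17.6.

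Ramp1 was lower at both times, in all gated and in leukocyte-rich cells. It encodes a subunit of the receptor for CGRP, a neuropeptide of sensory nerve endings. Its level was 84.7 CPM in control and 36.4 in experimental cells at 1 day (-1.22 [-1.55 to -0.90]) and 152 and 60.5 at 1 week (-1.33 [-1.88 to -0.79]). In keratinocytes it stood at 7.33 and 6.30, then at 11.7 and 12.9, without a call. Ramp1 thus lay about as far below control at each time, and its control level was above that of keratinocytes in both libraries.

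Outside the lists, the genes that the naming rule gave at 1 week included Mmp25, a membrane-anchored metalloprotease, with 2 and 50 UMIs (4.53 [2.60 to 7.61]). The heme oxygenase Hmox1 stood at 14.1 and 160 CPM (3.51), but it was also called higher in keratinocytes, at 8.36 and 59.1 CPM, and in T cells, at 1.64 and 73.7. The T cell costimulator Tnfsf9 (4-1BB ligand) had 2 and 35 UMIs (4.01 [2.05 to 7.11]). Other higher genes at 1 week were Slc6a14, Trex2, Spink5, Adcy6 and Tbc1d8, of which the first 3 were also called in keratinocytes. Mmp25 and Tnfsf9 were called higher there too, with ratios of 2.82 and 1.66, at 0.465 and 11.2 CPM in experimental keratinocytes. Slc6a14, an amino acid transporter, stood at 1.56 and 186 CPM and was not called in the leukocyte-rich cells. Lower genes at 1 week included the amino acid transporter Slc38a1 at 254 and 90.8 CPM (-1.48), the spermine oxidase Smox at 426 and 164 (-1.37), the autophagy gene Gabarapl1 at 327 and 121 (-1.43) and Zswim6 at 235 and 73.5 (-1.68). Ninl, Rnf24, Cwc25, Ppm1g, Raph1 and Pianp were lower too, with ratios of -1.42 to -5.12. Cwc25 and Zswim6 were also called lower in T cells (-1.62 and -1.28), and Pianp in keratinocytes (-1.24). All 10 lower genes had the same sign and call in the leukocyte-rich cells. At 1 day 65 of the 435 higher genes were in at least 10% of cells and above the keratinocyte level. Of those outside the lists, the 10 whose interval lay farthest from 0 were Slpi, Klk7, Flg (filaggrin), Slurp2, Il1f9, Alox12b, Endou, Klk5, Crct1 and Asprv1, with ratios of 1.93 to 7.18. All 10 were called higher in keratinocytes too. Flg stood at 12.9 and 126 CPM in the gated cells and at 7.47 and 71.7 in keratinocytes, and Asprv1, a protease that acts on profilaggrin, at 473 and 1797 and at 168 and 1481. Lower at 1 day were also Mt4, Dapl1, Acsbg1 and Col16a1, all 4 called lower in keratinocytes too, and Alox12e, Them5 and Podn, which were not. Alox12e and Them5 had keratinocyte ratios of -0.70 and -0.62, short of 2-fold. Both were called lower in T cells (-1.16 and -1.26), as was Mt4 (-2.4). Dapl1 was not called in the leukocyte-rich cells, and without the highest Scrublet scores Dapl1, Mt4 and Them5 had ratios above 0, at 0.74, 0.15 and 0.83. At 1 day Ninj1, a plasma-membrane protein, stood at 127 and 60.5 (-1.07 [-1.33 to -0.82]) and Herpud1, a gene of endoplasmic reticulum stress, at 111 and 52.0 (-1.10), the latter with -0.99 in the leukocyte-rich cells.

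Markers of other cell types were given the same count. Of the list for conventional dendritic cells of type 1 (DC1), 2 of 3 with enough UMIs were higher at 1 week, Irf8 and the lipid hydrolase Naaa (7 and 22 UMIs), and none of 4 at 1 day. Its defining members Xcr1 and Clec9a had no UMI at 1 day, and 0 and 3 for Xcr1 with none for Clec9a at 1 week. Dermal dendritic cell markers Cd209a and Clec10a had 4 and 9 and 0 and 7 UMIs at 1 week, and Mgl2 was the 1 gene called of the 3 with enough UMIs. All 9 mast cell and basophil genes except Kit stood at 0 in all 4 libraries, and among B cell genes only Ighm was found, at 37.6 and 76.4 CPM at 1 week. The T cell genes Cd3e, Cd3g and Cd3d, limited by the gate, had no UMI at 1 week, while Thy1 had 2 and 23. The neutrophil gene S100a9 had 0 and 25 UMIs at 1 day, 4.64-fold higher by the floor of 3 counts. S100a8 and Cxcr2 had 1 and 12 each, and Ly6g and Retnlg had none. The summed neutrophil list stood at 0.921 and 12.6 CPM in the gated cells at 1 day and at 4.32 and 54.1 in keratinocytes, where 3 of 3 genes were higher. The fibroblast collagens Col3a1 and Col1a1 had 5 and 88 and 2 and 26 UMIs at 1 week, with Col3a1 in 3.26% of the experimental cells. Of the fibroblast list 2 of 5 were higher at 1 week in all gated cells and 5 of 5 in the leukocyte-rich cells, where its summed level was 7.68 and 462 CPM. T cells had 5 of 5 higher too, against 5.38% of all their genes, at a summed level of 14.8 and 387 CPM. In keratinocytes none of 6 was called. At 1 week 9.26% of all genes were higher in the gated cells and 11.0% in the leukocyte-rich cells. The part of these other cells' transcripts in the lists above was not tested.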

How the data were processed

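Droplet libraries of epidermal cells from 4 groups were analysed, 1 library each. The deposited matrices hold raw UMI counts per gene and barcode, made by the authors with Cell Ranger 5.0.1 and Seurat against mm10 per the submitters' processing notes. Free RNA was not corrected in the deposited counts.

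Cells, T cells and keratinocytes were gated by transcripts, with the same limits in both libraries of a time. Counts were summed per library and class with Python 3.11.15, numpy 2.4.6, scipy 1.17.1 and pandas 2.3.3, and ratios were given exact intervals. The scripts were tested on simulated data. Doublets were not removed from the values reported, and Scrublet scores (scanpy 1.11.5, at a rate of 0.8% per 1000 barcodes) gave an alternative without the highest ones. TMM factors came from edgeR 4.0.16 in R 4.3.3. Shares of cells with a UMI were taken after thinning each cell to 1000 UMIs, and no cell was too shallow. Coordinates are those of GENCODE M21 (GRCm38), in which 32158 of 32285 gene IDs were found.

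The cells, gene lists and limits were chosen with earlier results of these data known. Named were all gate and identity genes, in each list up to 4 members past 2-fold with most UMIs (or with most UMIs where none was called), and outside the lists the 10 genes in each direction with the interval bound farthest from 0, found in 10% of cells and above the keratinocyte level, and a few of the genes called at both times, selected after their values were seen. Other genes named were chosen after their values were seen. Alternatives changed the gate, the depth floor, the gene minimum, the denominator and the scaling, thinned the cells, or took off a keratinocyte profile.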

Additional observations from a re-analysis of the deposited data

Results flagged for a closer look

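The difference in the share of gated cells had opposite signs at the 2 times, 1.45 percentage points at 1 day and -0.334 at 1 week. For leukocyte-rich cells it was 0.667 and -0.398 points. The difference between the times was not tested, the kits differed, and each sign rests on 1 library per group. Cxcl1 had a log2 ratio of 1.12 at 1 day and -4.76 at 1 week, and Pf4 of -3.85 at 1 day and 4.69 at 1 week. Both pairs have opposite signs, the difference was not tested, and the UMIs came from few cells: Pf4 had 32 control and 4 experimental UMIs at 1 day, 1 control and 28 experimental UMIs at 1 week, and 2.17% of the 1-week experimental cells held it. Another 3 genes of the lists were lower at 1 day and higher at 1 week, without a test of the difference: Plin2 (-1.55 and 1.32), the mitosis gene Birc5 (-1.04 and 2.26) and the immunoglobulin gene Ighm (-1.11 and 1.02). In the leukocyte-rich cells Birc5 and Ighm were not called lower at 1 day, Ighm with a ratio of -0.89. The 1-day matrices also hold counts for 4 hashtag features that the comparisons did not use. Hashtags 1 to 3 had a median of 524.5 counts per Langerhans cell in the control and 399 in the experimental library, whereas hashtag 4 had 2256 and 1425 counts in the whole of each library.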

How the results depend on the processing

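No paired analysis was possible because each group held 1 library and no result came from a test; for the same reason no replicate could be left out. Of the main values (shares, counts of called genes, Ccr7-positive shares), 66 settings stayed within the main value's counting interval (shares) or 1.5 times the main count, 17 moved it further and 2 turned its sign. The interval is wide for the 1-day Ccr7 difference of 0.887 points, which ran from 0.241 with 2 Ccr7 UMIs required to 2.27 thinned to 2000 UMIs. A like count did not mean the same genes: of the 435 higher at 1 day, 183 were among the 479 after thinning, 205 among the 621 with the keratinocyte profile taken off and 245 among the 606 without the highest Scrublet scores. The 1-day share difference of 1.45 points became 1.04 with 20 class II UMIs required, 0.796 with a Krt5 and Krt14 limit of 20, 1.20 over barcodes under the keratin limit, 0.699 without the highest Scrublet scores, 0.667 for leukocyte-rich cells and 21.96 over Langerhans and T cells together. The 1-week difference of -0.334 became 0.0755 with a floor of 2000 UMIs and 5.18 [-2.93 to 13.3] over Langerhans and T cells together. The 199 lower genes of 1 day became 91 with 50 UMIs required, 304 with 1, 114 after thinning, 119 without the highest Scrublet scores, 121 in leukocyte-rich cells and 490 with the keratinocyte profile taken off. At 1 week the 607 higher became 280 with 50 UMIs required and 158 after thinning, and the 228 lower became 137, 145 and, with TMM factors, 357. The cause of these shifts was not tested; thinning and the gene minimum change how many genes can be called. Higher genes were 68.6% of the calls at 1 day (55.9% with the profile off, 80.8% thinned, 83.6% without the highest Scrublet scores) and 72.7% at 1 week (56.9% with TMM, 52.1% thinned). TMM shifted the median of all 1-week genes from 0.10 to -0.05. Signs that turned at 1 day included that of the glycolysis list with the profile off (-0.034). Without the highest Scrublet scores they included Dapl1, Mt4, Them5 and Lpl (0.74, 0.15, 0.83 and 0.097). At 1 week they included Fabp5 with the profile off (-1.27) and Krt10 thinned (0.53). With a keratin limit of 20 they included Ifitm3, Lrp1 and the keratinocyte list (-0.013, -0.24 and -0.014). The fibroblast list turned thinned (-1.03) and at that limit (-3.29), and the maturation list thinned (-0.11). In cells without Ccr7 the 1-week signs turned for the maturation list (-0.70), the type 2 list (-0.0013), Cd40 (-0.89), Icam1 (-0.25) and Irf4 (-0.077). The main 1-day medians of the maturation (0.09) and type 2 (0.04) lists lie too near 0 for their sign to be read. Of 63 list and named genes called at 1 day 46 of the 53 with enough UMIs kept their call in leukocyte-rich cells, and of 119 at 1 week 107 of 112 did. The 1-week values rest on 128 and 92 cells, which limits their precision.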

Other observations

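The hashtags of the 1-day libraries divide their barcodes further, though the labels do not say what each marks, so they were not used as replicates. In the control library gated Langerhans cells were 2.02%, 2.86% and 1.78% of the barcodes led by hashtags 1, 2 and 3, and 0.777% of the 11191 passing barcodes with no leading hashtag. In the experimental library they were 4.46%, 4.34% and 4.69%, and 2.34% of the 20669 without one. Barcodes with no leading hashtag were 11191 of 28136 passing control barcodes and 20669 of 31862 experimental ones, so the hashtag groups cover unlike parts of the 2 libraries. Leukocyte-rich cells gave 1.74%, 2.63% and 1.48% in the control and 3.88%, 3.50% and 3.82% in the experimental library, with 0.447% and 1.10% of the barcodes that had no leading hashtag.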
